A study of Danio rerio with 4 samples.

Results

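Chaperone and heat shock protein genes of the zebrafish embryo were compared between cells that carry and cells that lack an endothelial reporter. The genes were taken by name from the table of 31716 genes. They comprised all rows whose symbol begins as an HSP90, HSP70, small HSP, HSP60 or HSP10, CCT, DNAJ, BAG, heat shock factor or FKBP gene, in lower case, which gave 109 genes. The tested cells were the GFP-positive fraction of Tg(fli1a:egfp) embryos at 24 hours post fertilization, labelled as endothelial cells, and the cells they were set against were the GFP-negative fraction of the same kind of embryo, labelled as non-endothelial cells. All 4 libraries, 2 per fraction, came from transgenic embryos whose cells were dissociated and fixed and then sorted on green fluorescence, so every sample shares the transgene, the fixation and the sort. The fli1a regulatory sequence that drives the reporter marks endothelium and can also mark blood and cranial mesenchyme. Separate clutches are not mentioned in the labels, so the p-values measure the spread between these libraries, which may be technical.

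Chaperones are proteins that help others fold, keep them from clumping or hand them on for destruction. HSP70 proteins bind short unfolded stretches, J-domain (DNAJ) proteins deliver clients to them and BAG proteins release those clients. HSP90 finishes the folding of signalling proteins and, in striated muscle, of myosin. The CCT ring and the mitochondrial HSP60 ring enclose whole proteins, small HSPs hold unfolded proteins, and FKBPs turn proline bonds. Heat shock factors switch on many of these genes under stress.

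Values are FPKM (mapped fragments adjusted for the length of the transcript and the size of the library), so levels can be set side by side between genes. The authors' deposited table gives 1 value per gene and fraction. Single libraries were not analysed here, no standard deviation accompanies a level, and the depth is unknown. The sort was visible in fixed marker genes. The 5 endothelial markers found in the table (fli1a, kdrl, cdh5, tie1, etv2) summed to 591 FPKM in GFP-positive cells against 11.5 FPKM in GFP-negative cells, with 4 of 5 called higher. Erythroid markers were also higher, in 5 of 5 cases. Of 8 skeletal muscle markers 7 were called lower, as were 5 of 5 neural markers, 2 of 2 notochord markers and 3 of 3 epidermal markers. In whole sorted fractions, fewer cells of a type and less RNA per cell cannot be told apart.

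Most tested chaperone genes had values within a factor of 2 of each other in the GFP-positive and GFP-negative fractions. Of the 109 genes, 61 had enough alignments for a test in the authors' deposited table and 48 did not. A gene was called when the deposited q-value was under 0.05. On that rule 4 of the 61 tested genes were called, 1 higher (hspa12a) and 3 lower (hsp90aa1.1, hspb1, hspb8) in GFP-positive cells. Over all 7299 tested genes, 14.3% were called, 7.18% higher and 7.15% lower. At a stricter q of 0.01 the same 4 genes were called, against 8.63% of all tested genes. Without adjustment, 6 of the 61 genes had a p under 0.05 in the authors' deposited table, against 23.9% of all tested genes. GFP-positive and GFP-negative values lay within a factor of 2 in 52 of the 61 genes (85.2%), against 72.0% of all tested genes, and within a factor of 1.5 in 47 (77.0%), against 56.4% of all tested genes.

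For GFP-positive over GFP-negative cells, log2((FPKM + 1) ratio) had a median of 0.17 over the 61 tested chaperone genes and 0.05 over all tested genes. Adding 1 FPKM shrinks the log2 ratio of a weakly expressed gene. GFP-positive values were the larger in 41 of the 61 (67.2%), against 53.1% of all tested genes. These shares depended on scaling: with both fractions rescaled to the same summed FPKM, which shifts every FPKM ratio by -0.27 on the log2 scale, the chaperone median was -0.094, the all-gene median was -0.21, and 25 of the 61 were larger in GFP-positive cells, against 36.8% of all tested genes. The sum over all genes reached 798915 FPKM in GFP-positive cells against 664220 FPKM in GFP-negative cells, and the 10 globin rows held 11.2% of the sum in GFP-positive cells against 0.167% in GFP-negative cells. After globin and ribosomal protein rows were left out before rescaling, 41 of the 61 were again larger in GFP-positive cells. The chaperone median was then 0.15 and the all-gene median 0.02. A share of larger values over all tested genes is not given here for that scaling.

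**Figure D1:**
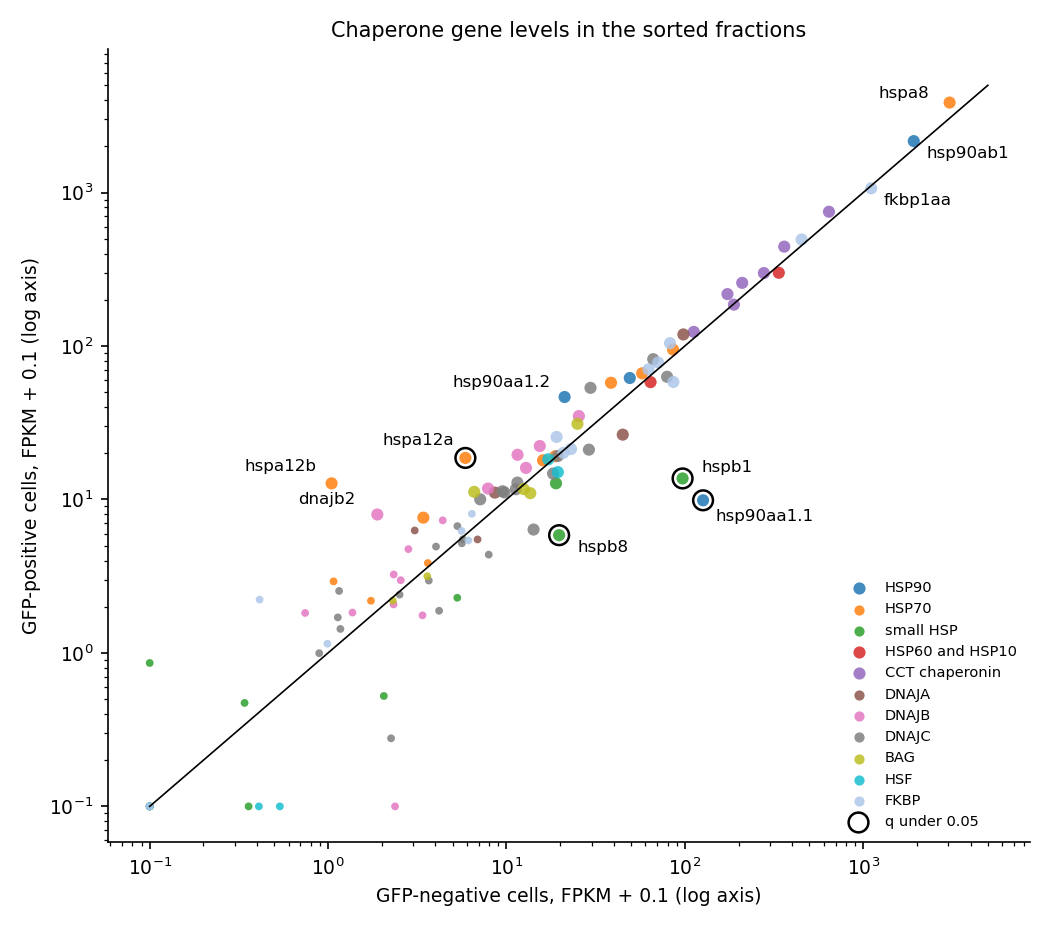
FPKM + 0.1 of each of the 109 chaperone genes in GFP-positive cells (vertical, log axis) against GFP-negative cells (horizontal, log axis), 1 point per gene, coloured by family. Large points had a test, small points did not, and the line marks equal values. Circles mark the 4 genes called at q under 0.05. hspa12a lies above the line, and hsp90aa1.1, hspb1 and hspb8 lie below it.

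The levels themselves spanned a wide range. At least 1 FPKM was reached by 93 genes in GFP-positive cells against 91 in GFP-negative cells, at least 10 FPKM by 55 and 51, and at least 100 FPKM by 14 and 13. Above 1000 FPKM stood hspa8, hsp90ab1 and fkbp1aa, in both fractions. The constitutive HSP70 gene hspa8 alone supplied 32.6% of the summed chaperone FPKM in GFP-positive cells against 28.9% in GFP-negative cells. Together the 109 genes held 1.48% of all FPKM in GFP-positive cells against 1.59% in GFP-negative cells. At the low end, 7 rows were listed at 0 in both fractions: hspb2, hspb3, hsf5, fkbp6, dnajc22, dnajc5b and 1 of 2 rows named dnajb12b. Listed at 0 in GFP-positive cells only were dnajb13, hsf2bp, hsf4 and hspb12, each under 2.5 FPKM in GFP-negative cells, and hspb15 was listed at 0 in GFP-negative cells only, with 0.760 FPKM in GFP-positive cells.

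HSP90 genes split by copy. The alpha gene hsp90aa1.1 (ENSDARG00000010478, chromosome 20, 54337467 to 54367194 in Zv9), which zebrafish muscle uses to fold myosin, had 9.77 FPKM in GFP-positive cells against 126 FPKM in GFP-negative cells. It was 12.9-fold lower in GFP-positive cells, at q = 0.000958 in the authors' deposited table. Of the tested chaperone genes, it had the lowest log2 ratio.

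Its neighbour hsp90aa1.2 (ENSDARG00000024746, chromosome 20, 54322500 to 54336777), 689 bases away, went the other way in value. It had 46.4 FPKM in GFP-positive cells against 21.1 FPKM in GFP-negative cells, at p = 0.0104 and q = 0.0660 in the authors' deposited table, so it did not pass. In GFP-positive cells the hsp90aa1.2 level was thus 4.75 times that of hsp90aa1.1, while in GFP-negative cells the hsp90aa1.1 level was 5.999 times that of hsp90aa1.2. Whether the difference between the copies exceeds their error was not tested. Reads from similar copies may be shared, and the sequences of these copies were not compared, so the division between them is uncertain. Their summed level was 56.2 FPKM in GFP-positive cells against 148 FPKM in GFP-negative cells.

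The beta gene hsp90ab1, the general cytosolic HSP90, far exceeded both, with 2164 FPKM in GFP-positive cells against 1922 FPKM in GFP-negative cells (q = 0.893 in the authors' deposited table). Its level was 221 times that of hsp90aa1.1 in GFP-positive cells and 15.2 times in GFP-negative cells. The endoplasmic reticulum HSP90 gene hsp90b1, which folds secreted and membrane proteins, had 61.8 FPKM in GFP-positive cells against 49.1 FPKM in GFP-negative cells (q = 0.702 in the authors' deposited table).

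Genes that work with HSP90 on myosin but fall outside the naming rule were lower as well. The myosin chaperone gene unc45b had 2.20 FPKM in GFP-positive cells against 25.4 FPKM in GFP-negative cells, 11.5-fold lower, at q = 0.000958 in the authors' deposited table. The gene smyd1b, a muscle methyltransferase that assists myosin assembly, had 8.16 FPKM in GFP-positive cells against 76.8 FPKM in GFP-negative cells, 9.41-fold lower, with the same q in the authors' deposited table. General HSP90 partners taken as examples did not pass. The HSP70 to HSP90 adaptor gene stip1 had 64.5 FPKM in GFP-positive cells against 63.6 FPKM in GFP-negative cells (q = 0.987 in the authors' deposited table). The cochaperone gene ptges3a had 59.1 FPKM in GFP-positive cells against 51.4 FPKM in GFP-negative cells (q = 0.853 in the authors' deposited table). Other genes of the folding machinery differed more in value without passing. The HSP90 partner gene fkbp4 had 58.2 FPKM in GFP-positive cells against 86.2 FPKM in GFP-negative cells (q = 0.426 in the authors' deposited table). The gene chordc1b had 45.9 FPKM in GFP-positive cells against 26.4 FPKM in GFP-negative cells (q = 0.263 in the authors' deposited table).

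Small HSPs gave the other genes called lower. The gene hspb1 (ENSDARG00000041065, chromosome 5, 3584620 to 3601420), the HSP27 gene, whose mammalian product guards actin and other filaments, had 13.6 FPKM in GFP-positive cells against 97.1 FPKM in GFP-negative cells. That is 7.13-fold lower, at q = 0.000958 in the authors' deposited table. The gene hspb8 (ENSDARG00000058365, chromosome 5, 17593473 to 17614308), whose mammalian product clears damaged muscle filament proteins together with BAG3, had 5.75 FPKM in GFP-positive cells against 19.6 FPKM in GFP-negative cells. It was 3.41-fold lower, at q = 0.00945 in the authors' deposited table.

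The third tested small HSP, hspb9, did not pass, with 12.6 FPKM in GFP-positive cells against 18.9 FPKM in GFP-negative cells (q = 0.675 in the authors' deposited table). Of the 10 small HSP genes the other 7 had no test. Among them hspb11, named hspb9l in the reference of gene names, had 2.19 FPKM in GFP-positive cells against 5.20 FPKM in GFP-negative cells. The muscle small HSP gene hspb7 had 0.424 FPKM in GFP-positive cells against 1.95 FPKM in GFP-negative cells, and hspb12 had 0 against 0.258 FPKM. The other direction in value was seen for hspb6, with 0.372 FPKM in GFP-positive cells against 0.240 FPKM in GFP-negative cells. It was also seen for hspb15, with 0.760 FPKM in GFP-positive cells against 0 in GFP-negative cells. Both hspb2 and hspb3 were at 0 in both fractions. Sums over all 10 small HSP genes were 35.8 FPKM in GFP-positive cells against 143 FPKM in GFP-negative cells. The lens and muscle small HSP gene cryaba, outside the naming rule, was listed at 0 in both fractions.

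BAG genes, including the partner of hspb8, gave no call. The gene bag3 had 11.6 FPKM in GFP-positive cells against 12.4 FPKM in GFP-negative cells (q = 0.946 in the authors' deposited table). The level of hspb8 was 0.496 times that of bag3 in GFP-positive cells and 1.58 times in GFP-negative cells. Among the 4 tested BAG genes, bag1, an HSP70 nucleotide exchange factor, was highest at 31.0 FPKM in GFP-positive cells against 24.9 FPKM in GFP-negative cells. The largest ratio belonged to bag2, which restrains an HSP70-linked ubiquitin ligase, at 11.1 FPKM in GFP-positive cells against 6.50 FPKM in GFP-negative cells (q = 0.647 in the authors' deposited table). Its Cuffdiff locus holds 2 genes. No BAG gene had an unadjusted p under 0.05 (0 of 4). Over all tested genes 23.9% had such a p and 14.3% were called.

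HSP70 genes held the only chaperone gene called higher. The atypical HSP70 gene hspa12a (ENSDARG00000070603, chromosome 17, 21053106 to 21093787) had 18.6 FPKM in GFP-positive cells against 5.79 FPKM in GFP-negative cells. It was 3.21-fold higher as deposited, at q = 0.00539 in the authors' deposited table. With equal summed FPKM it was 2.67-fold higher, and that rescaled value was not tested.

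Its relative hspa12b (ENSDARG00000030307, chromosome 7), an HSP70 gene known from endothelium and needed there for vessel growth in zebrafish, had 12.6 FPKM in GFP-positive cells against 0.946 FPKM in GFP-negative cells. The ratio of 13.4 was the largest among tested chaperone genes, but at p = 0.153 and q = 0.441 in the authors' deposited table it did not pass. The endothelial receptor gene tie1 likewise had a large ratio, 32.9 FPKM in GFP-positive cells against 0.120 FPKM in GFP-negative cells, at q = 0.441 in the authors' deposited table. The endothelial marker cdh5, with 87.3 FPKM in GFP-positive cells against 0.567 FPKM in GFP-negative cells, did pass, at q = 0.0303 in the authors' deposited table. Why hspa12b did not pass was not tested. The Cuffdiff locus of hspa12b also holds cct7. Beside the called hspa12a, 4 of 5 endothelial markers were called higher, by 24.6 to 154-fold, and 5 of 5 erythroid markers, by 49.2 to 92.7-fold. The part of either cell type in the hspa12a value was not tested.

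The other tested HSP70 genes did not pass, and their ratios ran from 1.02 to 2.26. The constitutive gene hspa8 had 3859 FPKM in GFP-positive cells against 3052 FPKM in GFP-negative cells (q = 0.767 in the authors' deposited table), and its Cuffdiff locus holds 4 genes. Reticulum HSP70 gene hspa5, also called BiP, had 94.8 FPKM in GFP-positive cells against 85.8 FPKM in GFP-negative cells (q = 0.898 in the authors' deposited table). The mitochondrial import motor gene hspa9 had 66.3 FPKM in GFP-positive cells against 57.6 FPKM in GFP-negative cells (q = 0.841 in the authors' deposited table). Of the HSP110 type exchange factors, hspa4b had 57.5 FPKM in GFP-positive cells against 38.5 FPKM in GFP-negative cells, and hspa4a had 17.9 FPKM in GFP-positive cells against 15.9 FPKM in GFP-negative cells.

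Heat-inducible HSP70 genes were low in both fractions. The gene hsp70.3 had 7.51 FPKM in GFP-positive cells against 3.32 FPKM in GFP-negative cells, at q = 0.855 in the authors' deposited table. It shares a Cuffdiff locus with hsp70.2, which had 2.83 FPKM in GFP-positive cells against 0.973 FPKM in GFP-negative cells and no test, and reads may be shared between these copies. The gene hsp70l, without a test, had 3.75 FPKM in GFP-positive cells against 3.52 FPKM in GFP-negative cells. The heat-inducible HSP110 gene hsph1, outside the naming rule and without a test, had 0.818 FPKM in GFP-positive cells against 0.399 FPKM in GFP-negative cells.

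**Figure D2:**
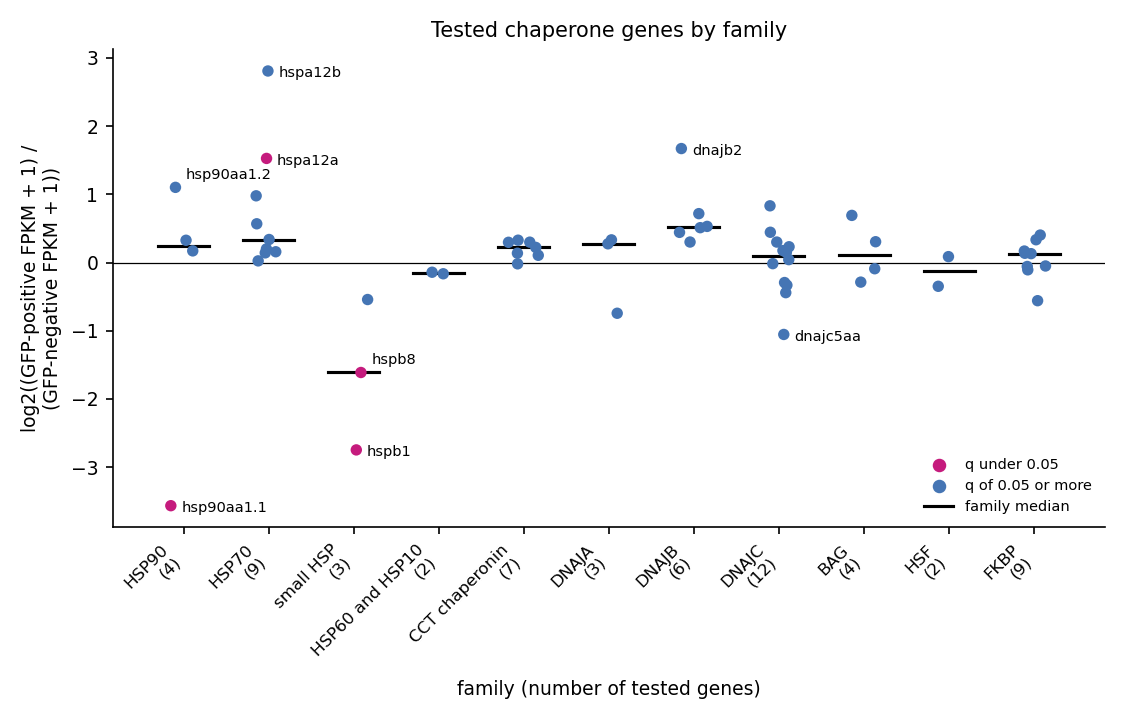
log2((GFP-positive FPKM + 1)/(GFP-negative FPKM + 1)) of the 61 tested chaperone genes (vertical axis) by family (horizontal axis, with the number of tested genes), 1 point per gene and a bar at the family median. The 4 genes called at q under 0.05 lie in the HSP90, HSP70 and small HSP families, and the small HSP median is -1.61, the value of hspb8.

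The cytosolic CCT ring, which folds actin and tubulin, was abundant and even between fractions. All 7 genes were tested and none was called, against 14.3% of all tested genes. None (0 of 7) had an unadjusted p under 0.05 in the authors' deposited Cuffdiff table, against 23.9% of all tested genes. The 7 ratios of GFP-positive to GFP-negative FPKM ran from 0.987 for cct6a to 1.26 for cct7. Their median log2 ratio was 0.22, or -0.044 with equal summed FPKM. It was 0.20 with globin and ribosomal protein rows left out before rescaling. The highest was cct8, with 750.1 FPKM in GFP-positive cells against 643 FPKM in GFP-negative cells, and the lowest was cct3, with 124 FPKM in GFP-positive cells against 112 FPKM in GFP-negative cells. The level of cct8 was 6.07 times that of cct3 in GFP-positive cells and 5.73 times in GFP-negative cells, although each ring holds both subunits. The Cuffdiff loci of cct5, cct6a and cct7 hold 2 genes each, and over CCT genes alone in their locus the median log2 ratio was 0.26. The remaining subunit gene, tcp1, which the naming rule misses, had 224 FPKM in GFP-positive cells against 159 FPKM in GFP-negative cells (q = 0.514 in the authors' deposited table).

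For the mitochondrial ring, the ratio between the RNA levels of lid and barrel was similar in both fractions, which was not tested. The barrel gene hspd1 (HSP60) had 58.1 FPKM in GFP-positive cells against 64.2 FPKM in GFP-negative cells. The lid gene hspe1 (HSP10) had 300.02 FPKM in GFP-positive cells against 336 FPKM in GFP-negative cells. Neither passed, with q-values of 0.898 and 0.883 in the authors' deposited table. The genes lie 232 bases apart on chromosome 9, and the level of hspe1 was 5.17 times that of hspd1 in GFP-positive cells and 5.24 times in GFP-negative cells.

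J-domain genes were the most numerous group, with 48 genes, of which 21 were tested and none was called, against 14.3% of all tested genes. Of the 21, 1 gene, dnajc5aa, had an unadjusted p under 0.05 in the authors' deposited Cuffdiff table, against 23.9% of all tested genes. This gene for a cysteine string protein, a synaptic vesicle chaperone, had 6.27 FPKM in GFP-positive cells against 14.1 FPKM in GFP-negative cells (p = 0.0177, q = 0.0985 in the authors' deposited table). Its copy dnajc5ab had 14.6 FPKM in GFP-positive cells against 18.2 FPKM in GFP-negative cells (q = 0.746 in the authors' deposited table). Neural markers summed to 31.0 FPKM in GFP-positive cells against 1261 FPKM in GFP-negative cells, and their part in the dnajc5aa value was not tested. The clathrin uncoating gene dnajc6 had no test and had 0.178 FPKM in GFP-positive cells against 2.16 FPKM in GFP-negative cells.

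Most tested class A and B J-domain genes were instead above equality in value, without passing. As deposited, all 6 tested DNAJB genes stood higher in value in GFP-positive cells, with a median log2 ratio of 0.52, or 0.28 with equal summed FPKM. The largest ratio belonged to dnajb2, at 7.88 FPKM in GFP-positive cells against 1.79 FPKM in GFP-negative cells (q = 0.415 in the authors' deposited table). The aggregation suppressor genes dnajb6a and dnajb6b stood at 19.5 and 11.7 FPKM in GFP-positive cells, against 11.4 and 7.79 FPKM in GFP-negative cells. The Cuffdiff loci of dnajb2 and dnajb6a hold 3 genes each. Of the 3 tested DNAJA genes, which serve HSP70 in the cytosol, dnaja2 had 119 FPKM in GFP-positive cells against 98.1 FPKM in GFP-negative cells. Its relative dnaja2l had 26.4 FPKM in GFP-positive cells against 44.8 FPKM in GFP-negative cells (p = 0.0511, q = 0.213 in the authors' deposited table). Their summed level was 145 FPKM in GFP-positive cells against 143 FPKM in GFP-negative cells. The Cuffdiff locus of dnaja2l holds 2 genes.

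Among the 12 tested DNAJC genes ratios ran from 0.445 for dnajc5aa to 1.81 for dnajc1, a reticulum J-domain gene with 53.3 FPKM in GFP-positive cells against 29.5 FPKM in GFP-negative cells (q = 0.340 in the authors' deposited table). By the mean of both fractions the most abundant was dnajc8, whose mammalian product binds splicing factors, with 82.0 FPKM in GFP-positive cells against 66.4 FPKM in GFP-negative cells. Its Cuffdiff locus holds 19 genes, so its level is uncertain. In GFP-negative cells dnajc9 was higher than dnajc8, at 79.4 FPKM, with 62.9 FPKM in GFP-positive cells (q = 0.699 in the authors' deposited table).

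Of the 5 genes in the heat shock factor group, hsf1 and hsf2 were tested and neither was called. They gave 0 of 2 at an unadjusted p under 0.05 in the authors' deposited Cuffdiff table. Shares over all tested genes were 14.3% called and 23.9% at such a p. The main stress factor gene hsf1 had 18.2 FPKM in GFP-positive cells against 17.1 FPKM in GFP-negative cells (q = 0.941 in the authors' deposited table), and hsf2 had 15.0 FPKM in GFP-positive cells against 19.3 FPKM in GFP-negative cells (q = 0.705 in the authors' deposited table). The naming rule also takes in hsf2bp, a binding partner of HSF2 that is no factor itself.

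FKBP genes gave no call in 9 tests, with 0 of 9 at an unadjusted p under 0.05 in the authors' deposited Cuffdiff table. Over all tested genes 14.3% were called and 23.9% had such a p. The gene fkbp1aa, a copy of the FKBP12 gene whose product binds calcium release channels and TGF-beta receptors, had 1066 FPKM in GFP-positive cells against 1109 FPKM in GFP-negative cells (q = 0.966 in the authors' deposited table). The other copy, fkbp1ab, had no test and had 7.97 FPKM in GFP-positive cells against 6.30 FPKM in GFP-negative cells, a level that fkbp1aa exceeded 134 times in GFP-positive cells and 176 times in GFP-negative cells. Among the tested FKBP genes the lowest ratio was that of fkbp4, an HSP90 partner on steroid receptors, with 58.2 FPKM in GFP-positive cells against 86.2 FPKM in GFP-negative cells (q = 0.426 in the authors' deposited table). The collagen-associated reticulum gene fkbp10b had the highest, with 25.5 FPKM in GFP-positive cells against 19.0 FPKM in GFP-negative cells (q = 0.720 in the authors' deposited table). Its Cuffdiff locus holds 2 genes. The untested fkbp5, whose mammalian product is an HSP90 partner on steroid receptors, had 2.13 FPKM in GFP-positive cells against 0.313 FPKM in GFP-negative cells.

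The 3 chaperone genes called lower all belong to a list of muscle chaperones, and no general cytosolic chaperone was called. The muscle list holds 11 genes picked for a role or expression in striated muscle, of which 5 were tested: 3 were called lower, none higher, and hsp90aa1.2 and bag3 did not pass. A muscle role of hsp90aa1.2 is not shown by these data. On the stress-inducible list stand hsp90aa1.2, hspb1, hspb11 and bag3 as well. Over all tested genes 7.15% were called lower and 14.3% called in either direction. The 20 general cytosolic genes (hspa8, hsp90ab1, CCT subunits, DNAJA genes and others) included 16 tested genes, none of them called. Of these, 0 of 16 had an unadjusted p under 0.05 in the authors' deposited Cuffdiff table, against 23.9% of all tested genes. Median log2 ratios were -1.61 over the 5 tested muscle genes and 0.25 over the 16 general genes (-1.90 and -0.016 with equal summed FPKM). With globin and ribosomal protein rows left out before rescaling, these medians were -1.72 and 0.22. The muscle list summed to 90.1 FPKM in GFP-positive cells against 284 FPKM in GFP-negative cells, and the general list to 8619.8 FPKM in GFP-positive cells against 7254 FPKM in GFP-negative cells. No test between the lists was made. Outside the muscle list, 1 of 56 tested chaperone genes was called, against the 14.3% of all tested genes. The lists were chosen with earlier results of these data known, so the counts inside and outside the muscle list are description only.

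**Figure D3:**
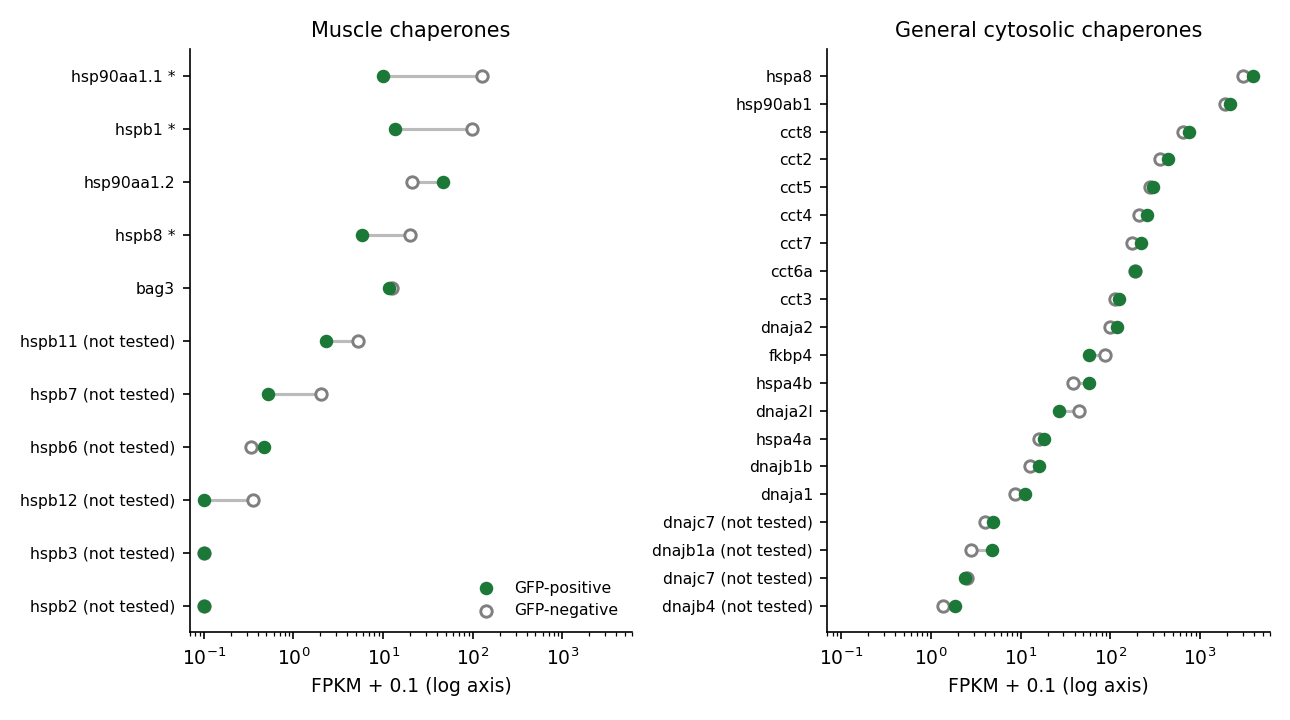
FPKM + 0.1 (horizontal, log axis) of the muscle chaperone list (left) and the general cytosolic list (right) in GFP-positive cells (filled) and GFP-negative cells (open), 1 row per gene in order of level. Asterisks mark q under 0.05. The pairs of points of hsp90aa1.1, hspb1 and hspb8 lie far apart with the GFP-positive value on the left, while those of the general genes lie closer together, within a factor of 2 for all 16 tested.

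Skeletal muscle markers were lower beside hsp90aa1.1, hspb1 and hspb8, as were markers of other cell types. Over the 8 muscle markers the sum was 499.8 FPKM in GFP-positive cells against 2606 FPKM in GFP-negative cells, none was listed at 0, and GFP-positive levels ran from 1.25 to 279 FPKM. They were lower in GFP-positive cells by 1.501-fold (tnnt3b, which did not pass) to 22.4-fold (myog). The 7 called markers were lower by 4.72-fold (actc1b) or more. The 12.9-fold of hsp90aa1.1 and 7.13-fold of hspb1 lie within the range of the called markers. The 3.41-fold of hspb8 lies below that range, between tnnt3b and actc1b. At 1.07-fold bag3 lies below all 8 markers, and hsp90aa1.2 differed in the other direction in value. Similar folds lower in GFP-positive cells were found for the 3 epidermal markers, at 6.46 to 7.89-fold, and the 2 notochord markers, at 11.6 and 14.6-fold, while the 5 neural markers were lower by 14.4 to 83.1-fold. The part of muscle, epidermal, notochord or neural cells in these differences was not tested. hspb1 is also on the stress-inducible list, of which it was the 1 gene called among 9 tested (11.1%), against 14.3% of all tested genes.

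**Figure D4:**
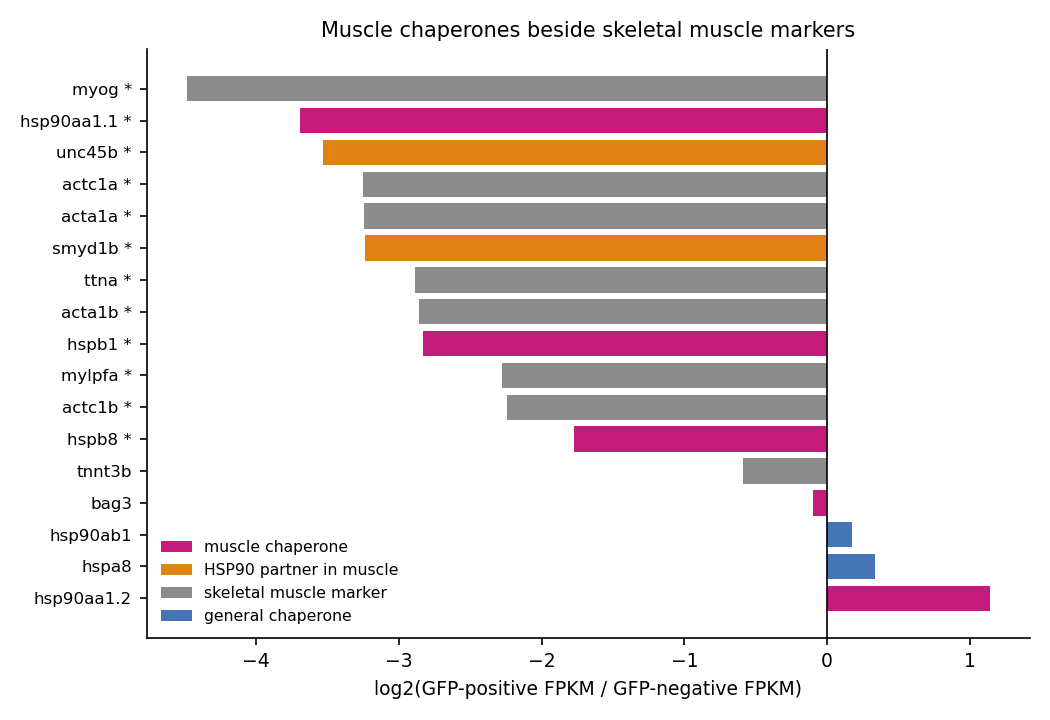
log2(GFP-positive FPKM/GFP-negative FPKM) (horizontal axis) of 5 genes of the muscle chaperone list, 2 HSP90 partners in muscle, 8 skeletal muscle markers and 2 general chaperone genes, 1 bar per gene with the lowest at the top. Asterisks mark q under 0.05. The bars of hsp90aa1.1, unc45b, smyd1b and hspb1 lie among those of the called markers. That of hspb8 is shorter than any called marker and longer than tnnt3b, which was not called. The bars of hsp90ab1, hspa8 and hsp90aa1.2 point to the other side.

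Grouped by compartment, the reticulum and mitochondrial lists gave no call. Over all tested genes 14.3% were called, and 23.9% had an unadjusted p under 0.05 in the authors' deposited Cuffdiff table. Of 17 reticulum genes 11 were tested, with 0 of 11 at an unadjusted p under 0.05 in the authors' deposited Cuffdiff table and a median log2 ratio of 0.18 (-0.069 with equal summed FPKM). With globin and ribosomal protein rows left out before rescaling, the reticulum median was 0.16. The reticulum J-domain gene dnajb11 had 34.8 FPKM in GFP-positive cells against 25.4 FPKM in GFP-negative cells, and fkbp2 had 104 FPKM in GFP-positive cells against 82.5 FPKM in GFP-negative cells. Of 9 mitochondrial genes 5 were tested, with 0 of 5 at that unadjusted p and a median log2 ratio of -0.02 (-0.27 with equal summed FPKM). The import motor gene dnajc19 had 12.8 FPKM in GFP-positive cells against 11.4 FPKM in GFP-negative cells. The stress-inducible list of 13 genes, 9 of them tested, had a median log2 ratio of -0.09 (-0.34 with equal summed FPKM). Its HSP40 gene dnajb1b had 16.0 FPKM in GFP-positive cells against 12.8 FPKM in GFP-negative cells.

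Of 48 further rows of the folding machinery outside the naming rule, 34 were tested, 1 was called higher and 2 lower, with a median log2 ratio of 0.25 (-0.0074 with equal summed FPKM). With globin and ribosomal protein rows left out before rescaling, the median was 0.23. The share called over all tested genes was 14.3%. Those called lower were unc45b and smyd1b. The 1 called higher was serpinh1a, a gene for the collagen chaperone HSP47, with 87.9 FPKM in GFP-positive cells against 39.8 FPKM in GFP-negative cells, 2.21-fold higher, at q = 0.0376 in the authors' deposited table, and its Cuffdiff locus holds 3 genes. Its copy serpinh1b had 257 FPKM in GFP-positive cells against 186 FPKM in GFP-negative cells and did not pass (q = 0.583 in the authors' deposited table). All tested prefoldin genes, whose products pass clients to CCT, failed to pass, as did the reticulum lectin genes calr and canx, with 140 and 88.9 FPKM in GFP-positive cells, against 127 and 89.1 FPKM in GFP-negative cells.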

How the data were processed

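RNA was extracted by the MARIS protocol for fixed sorted cells and libraries were made with the Total Script kit, per the labels' protocols. TopHat2 2.0.9, Cuffdiff 2.1.1 and the Zv9 build are named, per the submitters' processing notes. Alignment and counting settings are not given in the sources used here. FPKM values, 1 per gene and fraction, were deposited by the authors, and the column names do not say how libraries were combined. The deposited log2 ratio, per the file headers, puts GFP-negative cells on top. Ratios here were recomputed from FPKM with GFP-positive cells on top and differed from it, sign aside, by at most 1.5e-05. The deposited test statistic, a score, was not used. The deposited p-value and q-value were used as they stand; the q-value matched a Benjamini-Hochberg adjustment over 7299 tested genes within 5.26e-07. Coordinates are Cuffdiff loci in Zv9, and whether starts count from 0 or 1 is not stated. Of the 109 genes, 32 share a locus with another gene, 21 of them tested.

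Genes were matched by name. Median log2 ratios and the order of tested genes used a pseudocount of 1 FPKM. Folds and ratios of single genes were computed from FPKM without a pseudocount. No set or list test was run, and counts were computed with Python 3.11.15, numpy 2.4.6 and pandas 2.3.3, after testing on simulated data. Gene IDs of 94 of the 109 genes occur in the reference of gene names. The members and lists were chosen with earlier results of these data known. Genes named are those called, the most abundant and the extreme tested genes of each family, members of the lists, related genes called and fixed markers. Copies set side by side, further examples within families and lists, and genes at 0 were chosen after their values were seen. The list symbol dnajc3a stands as dnajc3 in the table and was not matched. Alternatives were other thresholds, minimum values, pseudocounts, scalings and gene sets. No sequence is shown.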

Additional observations from a re-analysis of the deposited data

How the results depend on the processing

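The same 4 chaperone genes were called (1 higher, 3 lower) under each alternative call rule tried: q under 0.01, at least a doubling of FPKM (1 on the log2 scale), floors of 1 and 5 FPKM, adjustment over genes of at least 1 FPKM, names that occur once, genes alone in their locus, genes at 0 left out and names matched in any letter case. The doubling, the floors and the repeated adjustment left all 1046 calls over all tested genes in place, so they could not change these 4. The name, locus and 0 settings only left rows out, without a new adjustment, and the letter-case setting only added rows. Only the stricter q removed calls among the rows kept. At a q of 0.01 the count over all tested genes was 630 in place of 1046. At that q serpinh1a was not called.

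Medians of log2((FPKM + 1) ratio) were less stable, and with 1 value per fraction their error is unknown; a move of over 0.1 was counted. Of 163 recomputed medians, 126 moved by less, 23 by more and 14 changed sign. The 126 include medians that could not have moved by over 0.1. Centring took the same 0.0113 off every log2 ratio, which is under that limit. Keeping only names that occur once left all 61 tested chaperone genes in place, so only the median of the related genes could change there. The 126 are therefore no measure of stability. The muscle median of -1.61 became -1.75 and -1.77 with pseudocounts of 0.1 and 0.01 FPKM, -1.29 over genes reaching 1 FPKM in both fractions, -0.96 over all genes above 0, and -1.90 and -1.72 after rescaling to equal sums of all genes, or of genes other than globin and ribosomal protein genes (no row was named as mitochondrially encoded). These rescaled medians were added after the data were seen. With equal sums of all genes the medians that changed sign were those of all tested chaperones (-0.094), the general list (-0.016), HSP90 (-0.015), CCT (-0.044), DNAJC (-0.15), BAG (-0.15), FKBP (-0.14), the reticulum list (-0.069) and the related genes (-0.0074), and the ratio of summed chaperone FPKM was 0.932 in place of 1.12. The BAG median was also -0.072 over genes of at least 1 FPKM and over genes above 0, and -0.090 for genes alone in their locus, where the FKBP median was -0.057. The stress-inducible median was 0.071 over all genes above 0. With dnajc3 added, the reticulum median was 0.20. The medians that changed sign with equal sums of all genes stayed positive when globin and ribosomal protein rows were left out before rescaling. They were then 0.15 for all tested chaperones, 0.22 for the general list, 0.23 for HSP90 and 0.20 for CCT. For DNAJC, BAG and FKBP they were 0.077, 0.085 and 0.11. For the reticulum list and the related genes they were 0.16 and 0.23.

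No paired analysis was possible because the table gives 1 value per fraction, and alternatives that leave out a library were not run for want of library values. Of the 109 genes, 48 had no test, and the depth is unknown.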

Other observations

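The table also holds 17 rows with chaperone names in capitals, which the naming rule leaves out. Of these, 2 were tested and none was called in the authors' deposited Cuffdiff table, with neither at an unadjusted p under 0.05. The J-domain gene DNAJA4 had 15.9 FPKM in GFP-positive cells against 18.2 FPKM in GFP-negative cells, and FKBP15 (3 of 4) had 14.5 FPKM in GFP-positive cells against 12.1 FPKM in GFP-negative cells. The others were below 7 FPKM in both fractions.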
